A study of Rattus norvegicus with 12 samples.

Results

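Solute carriers are the membrane proteins named Slc, followed by a number for the family, that move sugars, amino acids, fatty acids, nucleosides, vitamins, metals and ions across the plasma membrane and the membranes of organelles. Here 116 such genes of 37 carrier families, out of 4736 genes named on the array, were measured in rat liver by 176 of the 8740 probe sets tested. A probe set, the group of oligonucleotides that an Affymetrix array uses for a transcript, was a member if the platform annotation gave it exactly 1 symbol beginning with Slc and a digit. Slc2a5, Slc25a1, Slc25a20 and Slc10a1 were left out by rule, and 1 probe set joined to more than 1 symbol was also left out. The families with most probe sets were SLC6 with 17, SLC25 with 14, SLC1 with 13, SLC12 with 11 and SLC22 with 10, and 42 carriers were measured by several probe sets.

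The livers came from male Sprague Dawley rats that weighed 150 g at the start and carried a cannula into the stomach. A liquid diet was infused by total enteral nutrition for 21 days at a 17% excess of calories, in all 4 groups. The diets held 5% or 70% fat, made of corn oil (rich in polyunsaturated fatty acids) or olive oil (rich in monounsaturated fatty acids), with 3 arrays per diet. They were isocaloric and differed in the ratio of fat to carbohydrate, so every comparison of fat levels also compares carbohydrate levels. Each array held a pool of RNA, and how many rats a pool held is not stated in the labels. P-values therefore set a difference between diets against the spread among pools of 1 diet, which may be technical in part.

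A hepatocyte takes up glucose, amino acids, fatty acids and organic anions from portal blood, releases glucose and ketone bodies, and exchanges metabolites between cytosol and mitochondria, and each step needs a carrier. SLC2 proteins carry hexoses and SLC37A4 brings glucose 6-phosphate into the endoplasmic reticulum. SLC27 proteins take up fatty acids and activate them, SLC16 proteins carry lactate, pyruvate and ketone bodies, and SLC25 proteins cross the inner mitochondrial membrane. Many carriers on the array are known mainly from other tissues, such as the transporters for neurotransmitters. A deposited value is on the log2 scale and relative to the median of that probe set across the 12 arrays, so no absolute level is known and whether a carrier, or any marker of liver, is present cannot be read from them.

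One technical measure moved with the oil. The 3'/5' index compares array control probes at both ends of the actin and GAPDH transcripts (log2 of the 3' signal less the 5' signal, averaged over the pair) and is a sign of RNA quality or labelling. For the 5% corn oil arrays its mean was 1.28 ± 0.28 (SD, n = 3), and for the 70% corn oil arrays 0.71 ± 0.48 (SD, n = 3). The olive oil diets averaged -0.36 at 5% fat and -0.35 at 70% fat. The 6 corn oil arrays stood 1.35 above the 6 olive oil arrays (exact permutation test, two-sided p = 0.00216, the smallest these arrays can give). The 70% fat arrays differed from the 5% fat arrays by -0.56 on corn oil (p = 0.2, exact permutation test) and by 0.018 on olive oil (p = 0.8, exact permutation test), for which the smallest possible p is 0.1. In liver tissue, fewer cells of a type and less RNA per cell cannot be told apart.

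The carriers whose differences the text turns on include 1 that rose with fat and 2 that were lower with corn oil at both fat levels. The 250 bases before the start of these 3 genes, on the strand of the gene in the RefSeq annotation of GRCr8, are shown because their products meet different nutrients (fatty acids, ketone bodies and lactate, and zinc). Capitals mark 1 motif in each, searched on both strands. In Slc27a2 it is AGGTCA, the half-site of many nuclear receptors, here as its reverse complement. In Slc16a1 it is CACGTG, the E-box. In Slc30a1 it is TGCNCNC, the core of the metal response element, here at 2 places as its reverse complement.
Slc27a2, chr3:134257851-134258100 (+): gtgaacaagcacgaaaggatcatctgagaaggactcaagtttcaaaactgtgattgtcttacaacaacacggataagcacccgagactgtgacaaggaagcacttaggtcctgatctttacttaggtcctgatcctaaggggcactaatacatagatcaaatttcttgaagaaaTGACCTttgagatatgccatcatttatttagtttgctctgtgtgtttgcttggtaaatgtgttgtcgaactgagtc
Slc16a1, chr2:194812410-194812659 (+): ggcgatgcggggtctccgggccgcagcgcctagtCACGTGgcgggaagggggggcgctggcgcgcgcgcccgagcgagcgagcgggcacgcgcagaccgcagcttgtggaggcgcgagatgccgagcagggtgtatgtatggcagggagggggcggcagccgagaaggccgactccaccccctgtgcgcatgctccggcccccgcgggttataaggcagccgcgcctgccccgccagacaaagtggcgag
Slc30a1, chr13:106021769-106022018 (+): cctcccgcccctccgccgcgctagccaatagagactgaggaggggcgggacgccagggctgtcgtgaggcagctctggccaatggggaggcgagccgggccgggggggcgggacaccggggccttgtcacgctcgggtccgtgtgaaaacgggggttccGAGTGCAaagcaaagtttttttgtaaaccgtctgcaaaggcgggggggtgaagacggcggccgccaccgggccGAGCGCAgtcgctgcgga

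Of the 116 genes, 97 had at least 1 promoter in the RefSeq table, with 108 promoters in all. AGGTCA lay in 13% of these and in 14.1% of all 33360 promoters. CACGTG lay in 10.2% of the carrier promoters and 5.61% of all, and TGCNCNC in 52.8% and 43.4%. The promoter shown for Slc16a1 also held 2 matches to TGCNCNC, left in lower case. A match is a description of the letters and not of a bound site.

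With corn oil, 2 of the 176 carrier probe sets rose at 70% fat and 0 fell. They were Slc27a2, an enzyme and transporter that takes up and activates long and very long-chain fatty acids, and Slc6a13, which takes up GABA and taurine. The count of 2 is 1.14% of the carriers, beside 2.11% of all probe sets, of which 1.3% rose and 0.801% fell (limma, Benjamini-Hochberg adjusted over 8740 probe sets, threshold 0.05). With olive oil 0 carriers passed the test, beside 0.435% of all probe sets, and 14 carriers (7.95%, against 8.46% of all) had an unadjusted p under 0.05. For the mean of both fat effects 3 rose and 0 fell, 1.7% against 2.28% of all probe sets (1.25% higher and 1.03% lower), the third being Slc25a30, a carrier of the inner mitochondrial membrane. The median fat effect over the 176 was 0.00023 log2 with corn oil and 0.062 with olive oil, beside -0.0075 and 0.028 over all probe sets. Arrays of the 5% and 70% diets did not overlap for 24 carriers with corn oil (13.6%, against 18.9% of all) and for 33 with olive oil (18.8%, against 19.8%). A change past 1.5-fold was seen for 6 carriers with corn oil (3.41%, against 4.84% of all) and for 2 with olive oil (1.14%, against 2.11%).

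Slc27a2 read -0.29, -0.39 and -0.23 on the arrays of 5% corn oil and 0.31, 0.40 and 0.57 on those of 70% corn oil. The corn oil groups lay apart, with every 70% array above every 5% array. On olive oil it read -0.37, -0.02 and -0.01 at 5% fat and 0.09, 0.12 and 0.01 at 70% fat, so those groups lay apart too, but by a narrow margin. The rise was 1.66-fold with corn oil (log2 difference 0.73 ± 0.11 SE, adjusted p = 0.0049 by limma). The difference with olive oil was 0.21 ± 0.11 (adjusted p = 0.717, 95% interval -0.03 to 0.45), and the mean of both was 0.47 ± 0.08 (adjusted p = 0.00724). The fat effect was larger with corn oil by 0.52 ± 0.15, which did not pass the test for a difference between oils (adjusted p = 0.323). Slc27a1, the other member of the family on the array, which acts mainly in muscle and fat, differed by 0.17 with corn oil and by -0.06 with olive oil. Fitted with the index of each array as a covariate, the corn oil difference of Slc27a2 was 0.72 ± 0.15 and no longer passed (adjusted p = 0.0768), while the mean fat effect still did. The mean of the 16 probe sets of hepatocyte markers also lay apart between the corn oil groups, from -0.32 to -0.20 over the 5% arrays and from -0.15 to -0.0067 over the 70% arrays, with 1 marker probe set higher and 0 lower at 70% fat. Its part in the carrier differences was not tested.

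Slc25a30 had the largest fat difference of any carrier. Its values were -0.53, -1.94 and -0.90 at 5% corn oil and -0.03, 1.62 and 1.42 at 70% corn oil. With olive oil it read -1.52, 0.03 and -0.27 at 5% fat and 1.34, 0.62 and 1.49 at 70% fat. In both oils every 70% array was above every 5% array, and the arrays of the same diet spread widely. The mean fat effect was 3.82-fold (1.93 ± 0.36, adjusted p = 0.0129 by limma). The differences within an oil were 2.13 ± 0.50 with corn oil (adjusted p = 0.051) and 1.74 ± 0.50 with olive oil (adjusted p = 0.272), with no detectable difference between them (interaction 0.39 ± 0.71, 95% interval -1.15 to 1.94). The call of the mean was lost with a second quantile normalization and with the index as a covariate (1.73, adjusted p = 0.0741).

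Slc6a13 read -0.49, -0.35 and -0.06 at 5% corn oil and 0.50, 0.26 and 0.37 at 70% corn oil, without overlap. With olive oil the groups overlapped, at -0.20, -0.25 and 0.10 with 5% fat and 0.01, -0.01 and 0.44 with 70% fat. The rise with corn oil was 1.59-fold (0.67 ± 0.15, adjusted p = 0.0408 by limma). It lay close to the threshold: without any 1 of 9 arrays (pools 1 and 2 of 5% corn oil, of 5% olive oil and of 70% olive oil, and each pool of 70% corn oil) it no longer passed, with an adjusted p of up to 0.146. It was also lost with a second quantile normalization (adjusted p = 0.165), array weights (0.0606), the index as a covariate (0.24) and the 2 corn oil groups alone (0.101). The mean fat effect of 0.47 ± 0.11 (adjusted p = 0.0404) was lost without any 1 of 8 arrays (pools 1 and 2 of each 5% diet, and pools 1 and 3 of each 70% diet), with an adjusted p of up to 0.105. It was also lost with a second quantile normalization (adjusted p = 0.0654), centring of the arrays (0.0501) and the index (0.136).

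**Figure D1:**
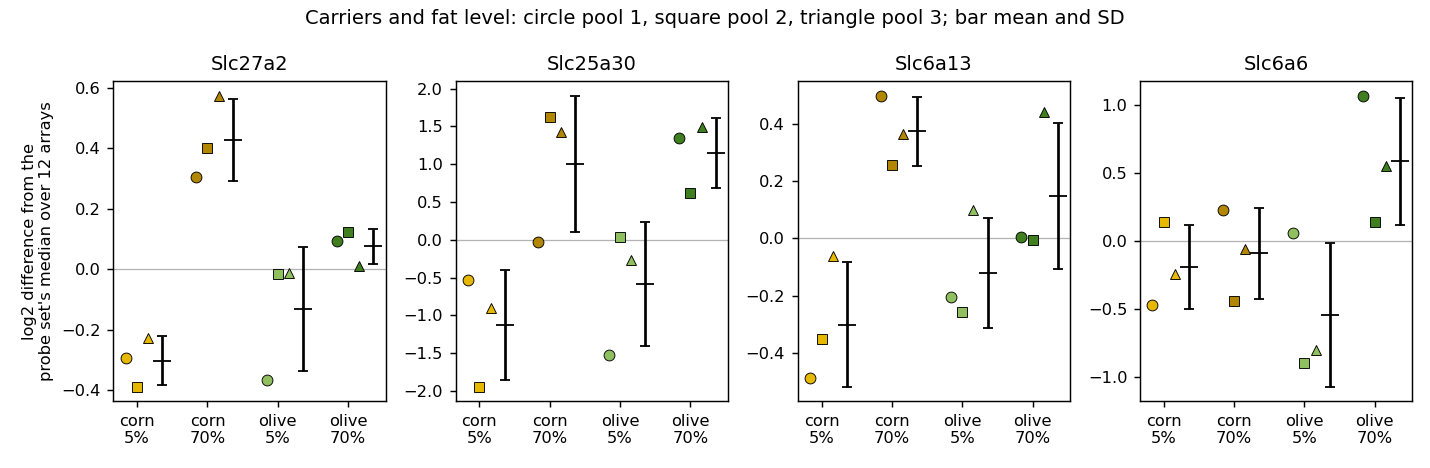
Log2 difference from the probe set's median (y axis) on the 12 arrays of 4 diets (x axis) for Slc27a2, Slc25a30, Slc6a13 and Slc6a6; symbols are pools 1 to 3, and each horizontal mark with its bar is the mean and SD of 3 arrays. Slc27a2 and Slc25a30 lay higher at 70% than at 5% fat on every array within each oil, Slc6a13 with corn oil alone, and Slc6a6 with olive oil alone.

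Among the carriers that did not pass with olive oil, Slc6a6, the taurine transporter, had the second largest value. It read 0.06, -0.90 and -0.80 at 5% and 1.07, 0.14 and 0.55 at 70% olive oil, groups that did not overlap but spread widely. The difference was 1.13 ± 0.29 with olive oil (adjusted p = 0.172) and 0.10 ± 0.29 with corn oil (adjusted p = 0.889). Slc2a3, the glucose transporter GLUT3, differed by 0.31 with olive oil (adjusted p = 0.167), while its other probe set differed by 0.05. Both Slc6a6 (1.20, adjusted p = 0.039) and this probe set of Slc2a3 (0.32, adjusted p = 0.0166) passed when arrays were weighted by their quality.

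Carriers of hepatic glucose showed no difference past the test between fat levels. Slc2a2, the glucose transporter GLUT2 of hepatocytes, differed by -0.27 with corn oil (95% interval -0.56 to 0.02) and by 0.17 with olive oil (95% interval -0.12 to 0.46). The pair of probe sets of Slc37a4, the glucose 6-phosphate translocase, were at -0.42 and -0.45 with corn oil (adjusted p = 0.294 and 0.144) and at -0.06 and -0.07 with olive oil. Slc2a1, the transporter GLUT1, was at -0.49 ± 0.19 for the mean fat effect on 1 probe set (adjusted p = 0.253) and at -0.11 on the other. Slc2a4, the insulin-responsive GLUT4, read -0.12 and -0.11 with corn oil and 0.22 and 0.14 with olive oil on its probe sets. Over all 17 probe sets of sugar carriers (11 genes), 12 were lower at 70% fat with corn oil, with a median of -0.11. With olive oil 11 were higher, with a median of 0.10. The group was made of whole families, so it includes Slc5a5 and the vitamin carrier Slc5a6, which are not sugar carriers. Of all probe sets 48.3% were higher at 70% fat with corn oil and 59.2% with olive oil. For the difference between these fat effects, 14 of the 17 were negative with a median of -0.20, beside -0.03 over all probe sets, and 0 of them passed the test.

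The remaining carrier groups held 0 probe sets past the test for fat besides those named. Metal carriers (10 probe sets, 7 genes) were higher with 70% corn oil in 8 and lower with 70% olive oil in 8, with medians of 0.12 and -0.06. Of all probe sets 48.3% were higher at 70% fat with corn oil and 59.2% with olive oil. The 6 probe sets of phosphate carriers (2 genes, with 5 of the probe sets from Slc34a1) all had a positive mean fat effect, beside 54.2% of all probe sets. Their median was 0.11, beside 0.012 over all. Of 12 probe sets (11 genes) of carriers for monocarboxylates, dicarboxylates and sulfate, 10 had a positive mean effect, with a median of 0.09. The 22 probe sets of amino acid carriers, 11 of them positive and 11 negative, had a median of -0.003. The medians of the sugar carriers and of these groups had the same signs after a second quantile normalization and after centring of the arrays.

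Single carriers of other families did not pass the test for fat. Slc12a2, the sodium-potassium-chloride cotransporter NKCC1, was at 0.25 ± 0.06 for the mean effect on 1 probe set (adjusted p = 0.0622) and between -0.14 and 0.15 on its other 3. Slc4a4, a sodium bicarbonate cotransporter, was at 0.87 ± 0.26 with corn oil (adjusted p = 0.108). Slc22a5, which takes up carnitine, was at 0.38 ± 0.15 for the mean effect (adjusted p = 0.276). Slc8a1, a sodium-calcium exchanger, had 5 probe sets that ran from 0.004 to 0.25 for the mean effect. The highest had an adjusted p of 0.198 by limma, and with 1 value per gene Slc8a1 was at 0.08 (adjusted p = 0.594).

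**Figure D2:**
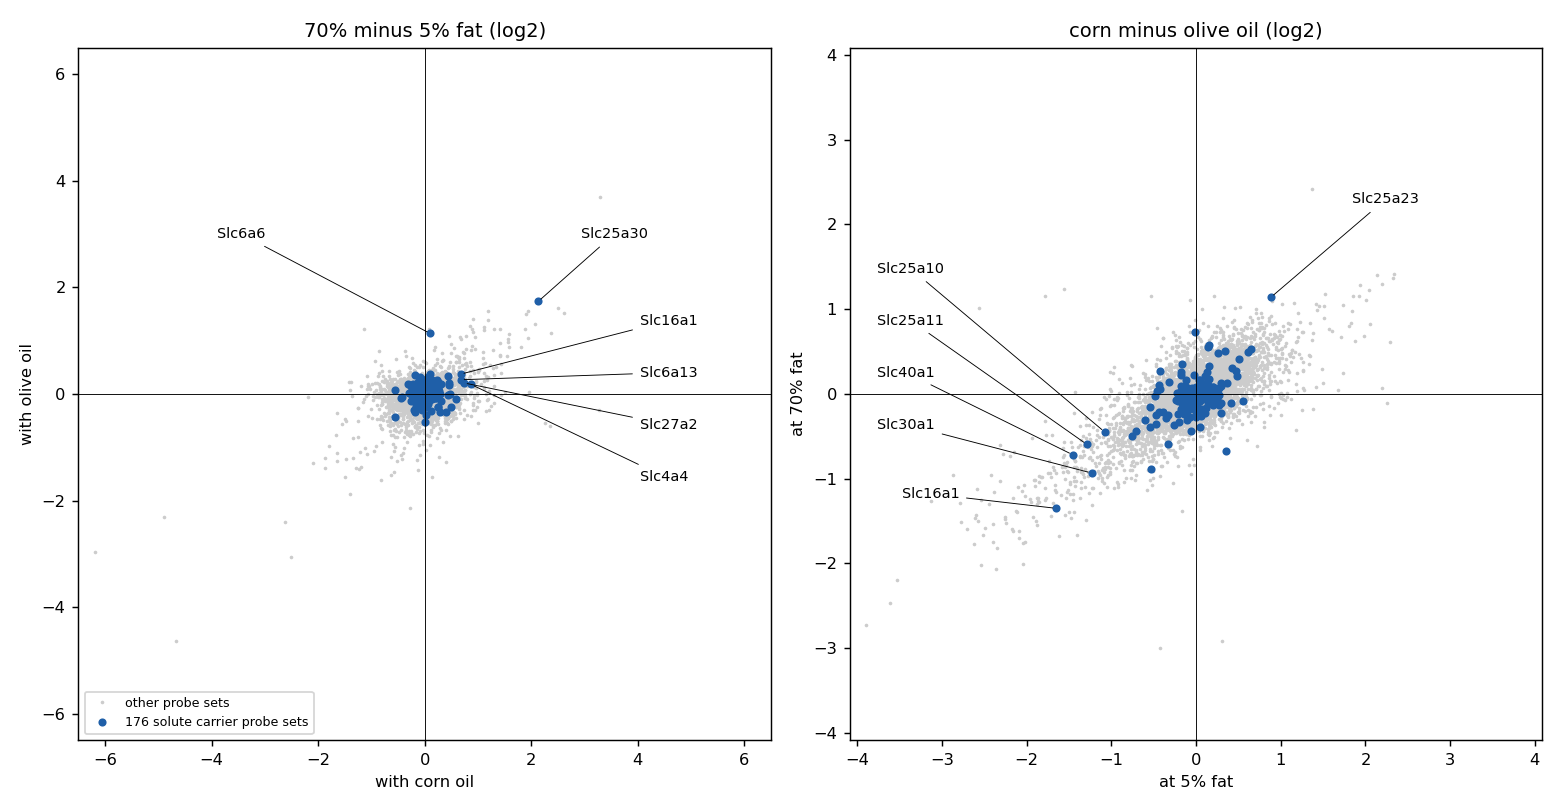
Log2 differences of the 176 carrier probe sets (blue) and the other probe sets (grey). The left panel sets 70% minus 5% fat with corn oil (x axis) against olive oil (y axis), and the right panel corn minus olive oil at 5% (x axis) against 70% fat (y axis); the 6 carriers farthest from 0 on either axis are named, and Slc25a30 stands apart on the left at 2.13 and 1.74.

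The fat effects in the 2 oils come from separate arrays. Across the 176 carriers they had the same sign in 85 (48.3%, against 52.8% of all probe sets), with a Pearson r of 0.43 across probe sets, beside 0.39 over all probe sets. Probe sets are not independent replicates, so these are descriptions. The difference between the fat effects passed the test for 0 carriers, as for 0% of all probe sets (limma), with 20 carriers (11.4%, against 11.8% of all) at an unadjusted p under 0.05. The smallest p-values were those of Slc27a2, of Slc15a4, a histidine and peptide carrier (0.48, adjusted p = 0.328), and of Slc25a11, the mitochondrial carrier of 2-oxoglutarate and malate (0.69, adjusted p = 0.34).

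More carriers passed the test between the oils than between the fat levels. At 5% fat 22 carrier probe sets differed between corn and olive oil, 10 higher and 12 lower with corn oil, which is 12.5% of the carriers beside 19.5% of all probe sets (limma, adjusted as above). The background is 10.1% for higher and 9.36% for lower. At 70% fat 11 differed, 5 higher and 6 lower, or 6.25% beside 8.51% of all (3.96% higher and 4.55% lower). So the share of carriers called was below that of all probe sets at both fat levels. The balance of directions depended on scaling: at 5% fat it was 6 higher and 15 lower after a second quantile normalization and 7 and 16 after centring each array, and at 70% fat 5 and 13 after quantile normalization. On the same arrays the 3'/5' index was higher with corn oil by 1.64 at 5% fat and by 1.06 at 70% fat (exact permutation p = 0.1 each, the smallest possible). With the index as a covariate 0 of all 8740 probe sets passed at either fat level. So 0 of the 22 and 0 of the 11 carriers were still past the test. Of them, 17 and 10 kept their sign, and the median ratio of the adjusted to the unadjusted difference was 0.317 and 0.562. The median SE rose from 0.129 to 0.292 and from 0.126 to 0.207. The difference grew for Slc16a6, Slc35f6 (0.42 to 0.59) and Slc6a4 at 5% fat. It also grew for Slc11a2, Slc6a5 and Slc22a18 (0.58 to 0.62) at 70% fat. For the other carriers called it shrank or turned sign. Oil and index cannot be told apart in these arrays.

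Markers of cell types were counted on the same arrays. Of 16 probe sets of hepatocyte markers, 6 were lower and 0 higher with 5% corn oil, beside 9.36% lower of all probe sets. Their mean ran from -0.32 to -0.20 over the 5% corn oil arrays and from 0.06 to 0.10 over the 5% olive oil arrays. At 70% fat 1 of the 16 was lower and 0 higher, beside 4.55% lower of all. Their mean again did not overlap, from -0.15 to -0.0067 with corn oil and from 0.013 to 0.10 with olive oil. The median difference over the 16 was -0.13 at 5% fat and only -0.014 at 70% fat, beside 0.056 and 0.015 over all probe sets. Of 14 probe sets of stellate cell and fibroblast markers, 4 were higher and 0 lower at 5% fat, beside 10.1% higher of all, and 1 was higher at 70% fat. Of 8 probe sets of bile duct cell markers, 2 were higher and 2 lower at 5% fat. At 70% fat 2 of these were higher and 0 lower, beside 3.96% higher of all, with means from 0.031 to 0.086 on corn oil and from -0.13 to -0.12 on olive oil. The part of these shifts in the carrier differences was not tested.

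Of the 27 carrier probe sets of 27 genes that passed at either fat level, 24 had the same sign at both, and 6 passed at both in the same direction (3.41% of carriers, beside 6.41% of all probe sets). The 24 include these 6, and the count of signs was not made over all probe sets called. The 2 oil contrasts share no arrays. Over all 176 carriers, 108 (61.4%, against 67.6% of all) had the same sign at both fat levels, with a Pearson r of 0.65 across probe sets, beside 0.72 over all. The index difference lies in the same direction at both levels too. At 5% fat the arrays of the compared groups did not overlap for 22 of the 22 carriers called, and at 70% fat for 11 of the 11. The calls were made on these same arrays, so this adds no support to them. Among all carriers, called or not, 60 (34.1%, against 41.3% of all probe sets) did not overlap at 5% fat and 47 (26.7%, against 27.2%) at 70%.

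Slc16a1, the transporter MCT1 of lactate, pyruvate and ketone bodies, was the carrier with the largest oil difference. It read -1.71, -1.41 and -1.25 with 5% corn oil and 0.06, 0.20 and 0.31 with 5% olive oil. At 70% fat it read -1.04, -0.06 and -1.27 with corn oil and 0.67, 0.23 and 0.79 with olive oil. Every corn oil array was below every olive oil array, and pool 2 of 70% corn oil, which had the lowest 3'/5' index of the corn oil arrays (0.16), lay nearest to the olive oil arrays. The level with corn oil was 3.14-fold lower at 5% fat (log2 difference -1.65 ± 0.26, adjusted p = 0.00109 by limma) and 2.55-fold lower at 70% fat (-1.35 ± 0.26, adjusted p = 0.0101). Its second probe set was at -0.60 (adjusted p = 0.0565) and -0.31 (adjusted p = 0.408). With the index as a covariate the values of the first were 0.19 and -0.16, neither past the test.

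Slc30a1, the zinc exporter ZnT1 of the plasma membrane, read -0.56, -1.08 and -0.71 with 5% corn oil against 0.62, 0.22 and 0.50 with 5% olive oil. At 70% fat it read -0.69, -0.22 and -0.57 against 0.24, 0.45 and 0.64. The oils did not overlap at either fat level. The level with corn oil was 2.35-fold lower at 5% fat (-1.23 ± 0.17, adjusted p = 0.000496 by limma) and 1.91-fold lower at 70% fat (-0.93 ± 0.17, adjusted p = 0.00752). With the index as a covariate the differences kept their sign, at -0.60 ± 0.41 and -0.52 ± 0.29, and neither passed.

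Iron carriers were also among the metal carriers with an oil difference. Slc40a1, ferroportin, the exporter of iron from macrophages and hepatocytes, read -1.25, -0.90 and -0.45 with 5% corn oil and 0.71, 0.67 and 0.39 with 5% olive oil. It was 2.74-fold lower with corn oil (-1.46 ± 0.35, adjusted p = 0.0124 by limma), a call lost without pool 1 of 5% corn oil (adjusted p = 0.0556). At 70% fat the difference was -0.72 (adjusted p = 0.247), with overlapping arrays. With the index as a covariate the difference at 5% fat turned to 0.46 ± 0.76. Its second probe set was at -0.39 (adjusted p = 0.243) and -0.22. Of 11 probe sets of macrophage markers, which include the cells that carry most ferroportin in liver, 1 was higher and 2 were lower with 5% corn oil, and their mean ran from -0.16 to 0.18 over the 5% corn oil arrays and from 0.0019 to 0.28 over the 5% olive oil arrays. Their part in the difference was not tested. Slc11a2, the divalent metal transporter DMT1, was higher with corn oil at 70% fat on 1 of its 3 probe sets (0.32 ± 0.07, adjusted p = 0.0198), while the others were at 0.08 and -0.25. Without pool 1 of 70% corn oil, or pool 1 or 2 of 70% olive oil, it no longer passed (adjusted p of up to 0.0793). The fit that adds the index put this difference at 0.39 ± 0.14, not past the test (adjusted p = 0.474 by limma).

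Mitochondrial carriers held 4 calls at 5% fat, 1 higher and 3 lower with corn oil, among 14 probe sets of 10 genes. Of all probe sets 19.5% were called at 5% fat. Slc25a23, the calcium-regulated exchanger of ATP-magnesium and phosphate, read 0.47, 0.62 and 0.66 with 5% corn oil against -0.28, -0.27 and -0.35 with 5% olive oil. At 70% fat it read 0.78, 0.27 and 0.56 against -0.80, -0.51 and -0.50. The oils lay far apart at both fat levels, and the carrier was 1.85-fold higher at 5% fat (0.88 ± 0.13, adjusted p = 0.000622 by limma) and 2.21-fold higher at 70% fat (1.14 ± 0.13, adjusted p = 0.00121). With the index as a covariate it was at 0.54 ± 0.33 and 0.92 ± 0.23, not past the test (adjusted p = 0.833 and 0.391).

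Slc25a11, the exchanger of 2-oxoglutarate and malate that serves the malate-aspartate shuttle, read -1.15, -1.07 and -0.91 with 5% corn oil against 0.28, 0.37 and 0.09 with 5% olive oil. At 70% fat it read -0.65, -0.02 and -0.68 against 0.22, 0.21 and 0.02. The groups did not overlap, and pool 2 of 70% corn oil again lay next to the olive oil arrays. The difference was -1.29 ± 0.16 at 5% fat (2.44-fold lower, adjusted p = 0.000327 by limma) and -0.60 ± 0.16 at 70% fat (adjusted p = 0.0395). The call at 70% fat was lost without pool 2 of 5% corn oil, pool 1 or 2 of 5% olive oil, pool 1 or 3 of 70% corn oil or any pool of 70% olive oil (adjusted p of up to 0.133). The fit that adds the index put the differences at -0.26 and 0.072, neither past the test. The second probe set of Slc25a11 did not follow, at 0.15 ± 0.12 and 0.18 ± 0.12.

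Slc25a10, the dicarboxylate carrier that exchanges malate and succinate for phosphate, was lower with 5% corn oil on 1 probe set (-1.08 ± 0.23, 2.11-fold, adjusted p = 0.00579 by limma). Its other probe sets were at -0.09 and 0.34, so the gene gave no single direction. Slc25a5, the adenine nucleotide translocase ANT2, was lower by a smaller amount (-0.47 ± 0.13, adjusted p = 0.0254). That call was lost without any 1 of 5 arrays (pools 1 and 2 of 5% corn oil and each pool of 5% olive oil), with an adjusted p of up to 0.104.

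**Figure D3:**
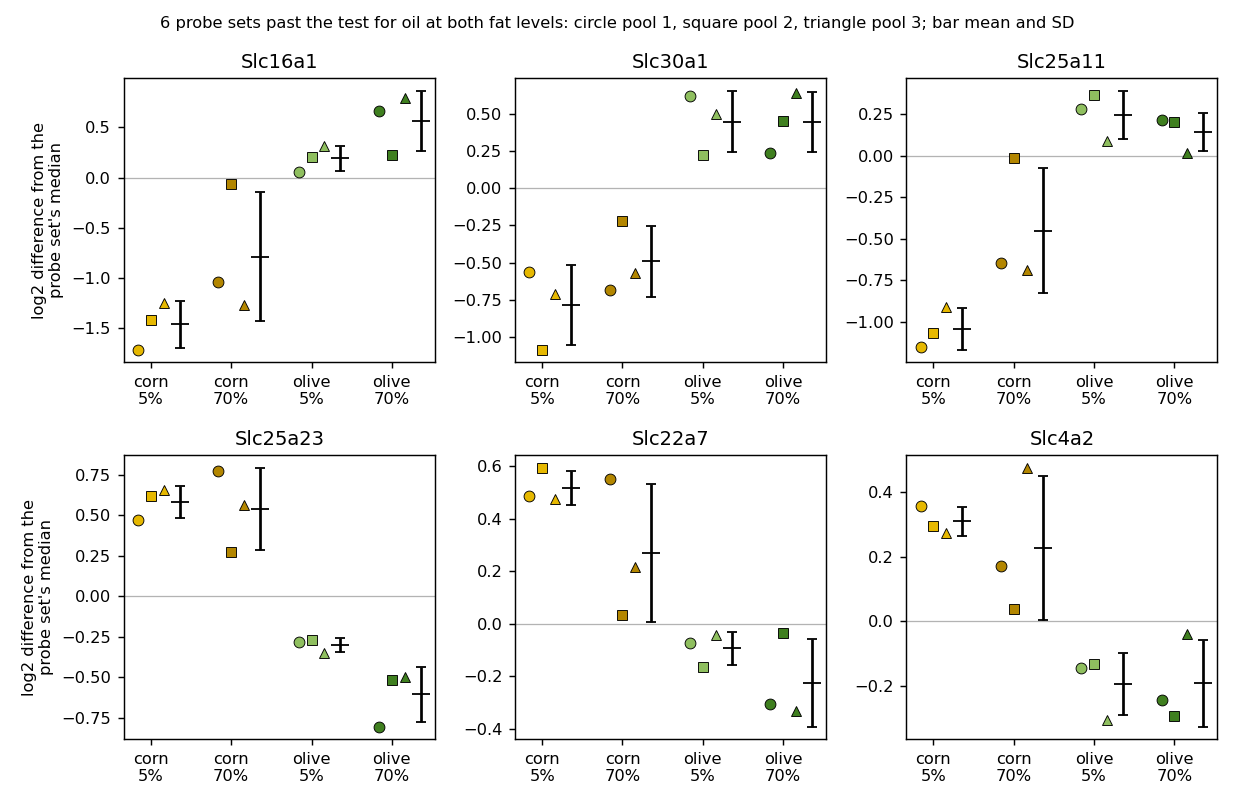
Log2 difference from the probe set's median (y axis) on the 12 arrays of 4 diets (x axis) for the 6 carriers past the test for oil at both fat levels; symbols are pools 1 to 3, and each horizontal mark with its bar is the mean and SD of 3 arrays. Slc16a1, Slc30a1 and Slc25a11 lay lower and Slc25a23, Slc22a7 and Slc4a2 higher with corn oil on every array.

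Organic ion carriers (10 probe sets, 8 genes) held 1 call at 5% fat and 2 at 70% fat, all higher with corn oil. Over the whole array 19.5% and 8.51% of probe sets were called, in either direction. Slc22a7, the organic anion transporter OAT2 of the hepatocyte's sinusoidal membrane, read 0.49, 0.59 and 0.47 with 5% corn oil against -0.08, -0.16 and -0.04 with 5% olive oil, a difference of 0.61 ± 0.13 (adjusted p = 0.00511 by limma). At 70% fat the difference was 0.49 ± 0.13 (adjusted p = 0.0327), lost without any 1 of 4 arrays (pools 1 and 3 of each 70% diet), with an adjusted p of up to 0.122. Its other probe set was at -0.47 ± 0.21 and 0.04 ± 0.21, of opposite sign at 5% fat. Slc22a18, an organic cation carrier, read 0.06, 0.30 and 0.25 with 70% corn oil against -0.42, -0.32 and -0.38 with 70% olive oil. That 1.49-fold difference passed (0.58 ± 0.10, adjusted p = 0.00758), and at 5% fat it was 0.15 (adjusted p = 0.349). The fit that adds the index put the difference at 70% fat at 0.62 ± 0.20, not past the test (adjusted p = 0.417 by limma).

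Amino acid carriers (22 probe sets, 10 genes) held 2 calls at 5% fat, both lower with corn oil, and 0 at 70% fat. The shares called over all probe sets were 19.5% and 8.51%. Slc3a2, the heavy chain that pairs with several amino acid exchangers, read -0.66, -0.79 and -0.51 with 5% corn oil against -0.13, 0.29 and 0.13 with 5% olive oil. It was 1.68-fold lower (-0.75 ± 0.15, adjusted p = 0.00366 by limma), with its second probe set at -0.21 (adjusted p = 0.184). Slc7a2, a carrier of arginine and other cationic amino acids, was at -0.33 (adjusted p = 0.0442), lost without any 1 of 7 arrays (pools 1 and 3 of 5% corn oil, each pool of 5% olive oil, and pools 2 and 3 of 70% olive oil), with an adjusted p of up to 0.171.

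Among the 17 probe sets of sugar carriers, which include the vitamin carrier Slc5a6, 2 were lower and 0 higher with corn oil at 70% fat, and 0 passed at 5% fat. The shares called over all probe sets were 8.51% at 70% fat and 19.5% at 5% fat. Slc37a4 read -0.31, -0.27 and -0.92 with 70% corn oil against 0.03, 0.60 and 0.55 with 70% olive oil. The difference was 1.85-fold (-0.89 ± 0.20, adjusted p = 0.0217 by limma), and its second probe set was at -0.44 (adjusted p = 0.0996). Without pool 3 of 70% corn oil or pool 2 or 3 of 70% olive oil it no longer passed, with an adjusted p of up to 0.0824. Slc5a6, which carries biotin and pantothenate, was lower by less (-0.37 ± 0.09, adjusted p = 0.0237), with its other probe set at 0.10. It passed without pool 2 of 70% corn oil and not without any 1 of the other 5 arrays at 70% fat (adjusted p of up to 0.1). Slc2a2 was at 0.05 at 5% fat and at -0.39 ± 0.13 at 70% fat (adjusted p = 0.0909).

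Ion and phosphate carriers made up further calls. Slc4a2, the chloride-bicarbonate exchanger AE2, was higher with corn oil at both fat levels (0.50 ± 0.11, adjusted p = 0.00871, and 0.42 ± 0.11, adjusted p = 0.0425, by limma), with its other probe set at -0.12 and 0.16. At 70% fat it no longer passed without any 1 of 9 arrays (each pool but pool 1 of 5% corn oil, pool 3 of 5% olive oil and pool 2 of 70% corn oil), with an adjusted p of up to 0.14. Slc20a2, the phosphate carrier PiT2, was lower at 5% fat (-0.44 ± 0.08, adjusted p = 0.00342) on arrays of -0.44, -0.26 and -0.35 against 0.13, 0.07 and 0.07. Slc4a7, a sodium bicarbonate cotransporter, and Slc8a2, a sodium-calcium exchanger, were higher at 5% fat by 0.48 and 0.28 (adjusted p = 0.0337 and 0.0432). Each of those last 2 calls was lost without any 1 of several arrays, 5 for Slc4a7 (pools 1 and 3 of 5% corn oil and each pool of 5% olive oil) and 9 for Slc8a2 (every 5% array, pool 2 of 70% corn oil and pools 1 and 3 of 70% olive oil), with adjusted p-values of up to 0.112 and 0.15.

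The remaining calls came from several families. At 5% fat Slc35b1, which carries nucleotides into the endoplasmic reticulum, was lower with corn oil (-0.70 ± 0.14, adjusted p = 0.00443), on arrays of -0.37, -0.22 and -0.05 against 0.38, 0.28 and 0.81. Its other probe set was at -0.17 and did not pass. Slc28a2, the purine nucleoside transporter CNT2, was at -0.54 (adjusted p = 0.0391) and Slc15a4 at -0.43 (adjusted p = 0.0132). Slc10a2, the ileal and bile duct transporter of bile acids, was at 0.56 (adjusted p = 0.0384), with its other probe set at -0.07. Slc16a6, of the monocarboxylate family, was at 0.37 (adjusted p = 0.0192), Slc35f6 at 0.42 (adjusted p = 0.0155), and Slc26a2, a sulfate carrier, at 0.29 (adjusted p = 0.0385). Slc6a4, the serotonin transporter, was at 0.24 (adjusted p = 0.0498), with its other probe set at 0.005. At 70% fat Slc6a5, a glycine transporter of neurons, was at -0.33 (adjusted p = 0.0481). Slc6a4 aside, only Slc35b1 of these passed without each array in turn, and the others reached an adjusted p of 0.0577 to 0.177 without 1 array. Slc6a4, which fell outside the naming rule and was named after its values were seen, was not followed when arrays were left out.

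**Figure D4:**
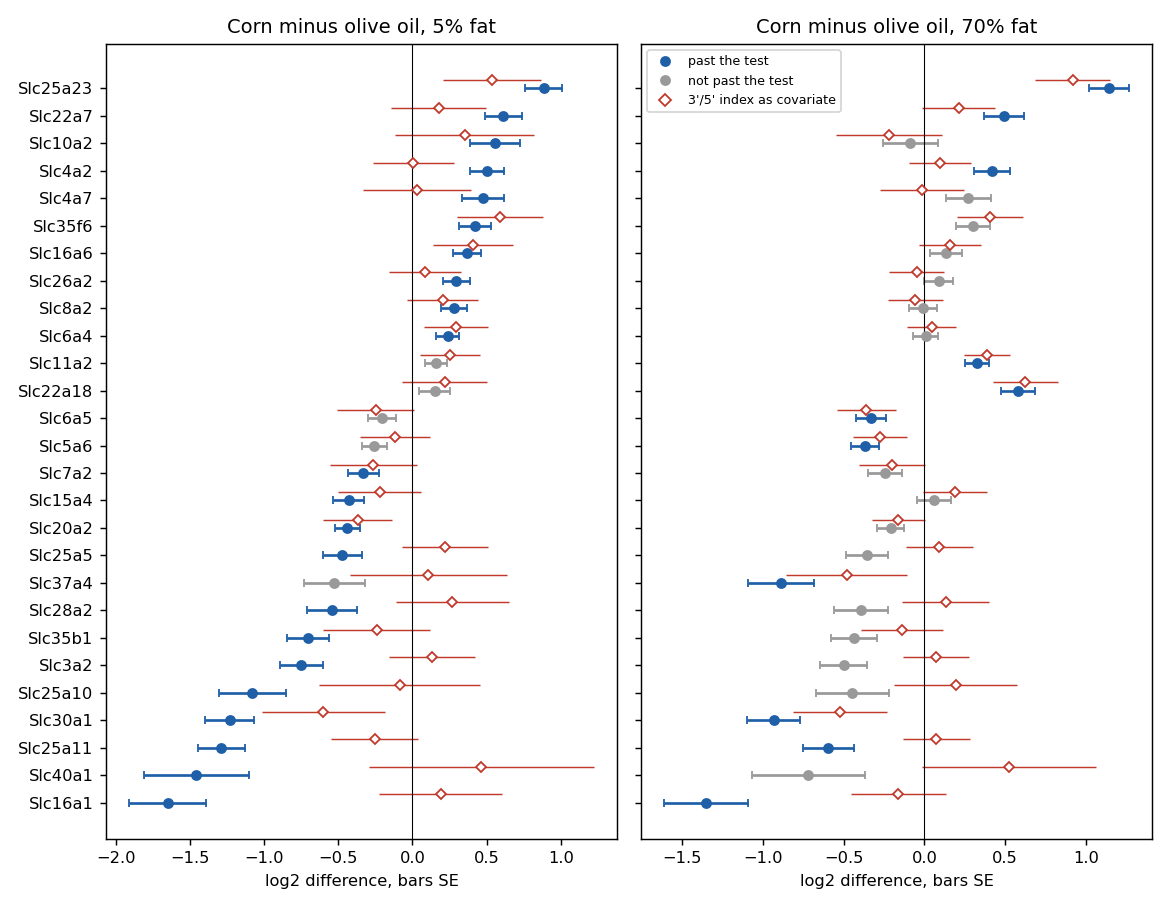
Corn minus olive oil (x axis, log2 difference with SE bars) at 5% fat (left) and 70% fat (right) for the 27 carrier probe sets past the test at either level, ordered by the value at 5% fat. Filled points are the fit without covariate (blue past the test, grey not). Open diamonds are the fit that adds the index, in which 0 of all probe sets on the array passed. The diamonds of Slc16a1 lie at 0.19 and -0.16, near 0.

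Pool 2 of 70% corn oil, whose index of 0.16 was closest to the olive oil arrays, could be set against the other arrays for these carriers. For 18 of the 22 carriers called at 5% fat it was the 70% corn oil array nearest the 70% olive oil mean (81.8%, against 65.1% of all 1704 probe sets called). For the 11 called at 70% fat it was nearest in 9 (81.8%, against 75.8% of all 744). Both counts are descriptions: they rest on 1 array singled out by its index, and the calls at 70% fat were made with it. The part of the index in the carrier differences was not tested by them.

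Removing 1 array at a time left 10 of the 21 followed calls at 5% fat past the test each time. These were Slc25a10, Slc35b1, Slc4a2, Slc20a2, Slc22a7, Slc25a23, Slc16a1, Slc30a1, Slc25a11 and Slc3a2. At 70% fat 4 of the 11 passed each time, namely Slc25a23, Slc22a18, Slc16a1 and Slc30a1. The count of carriers at 5% fat was 12 without pool 1 of 5% corn oil and 14 without pool 2 of 5% olive oil. Over all probe sets it fell from 1704 to 1185 and 1115. At 70% fat the count of carriers was 5 without pool 1 or pool 3 of 70% corn oil or pool 3 of 70% olive oil. It was 6 without pool 1 or pool 2 of 70% olive oil. Over all probe sets the count fell from 744 to 350, 412, 311, 322 and 373 in the same order.

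Genes with several probe sets show how far a call holds for a gene. At 5% fat 10 such genes had at least 1 probe set past the test, in 0 of them did all pass, and in 5 all had the same sign. At 70% fat there were 7 such genes, 0 with all past the test and 4 with 1 sign. These counts were not made over all genes of the array with a call, so they cannot be read as particular to carriers. Slc16a1, Slc40a1, Slc3a2 and Slc35b1 kept 1 sign across their probe sets at 5% fat, and Slc25a11, Slc25a10, Slc22a7, Slc4a2 and Slc10a2 did not. Over all 42 genes with several probe sets, all had the same sign in 21 (50%, against 49.1% of such genes on the array) at 5% fat and in 27 (64.3%, against 47%) at 70% fat. For the fat effect the shares were 50% with corn oil and 57.1% with olive oil, beside 53% and 58.1%. With 1 value per gene 17 of the 116 carrier genes passed at 5% fat and 6 at 70% fat. In all 801 and 328 passed, on an array that names 4736 genes. Whether the lower share of carriers called also holds by gene was not tested. These count genes, so they cannot be set directly beside the 22 and 11 probe sets.

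**Figure D5:**
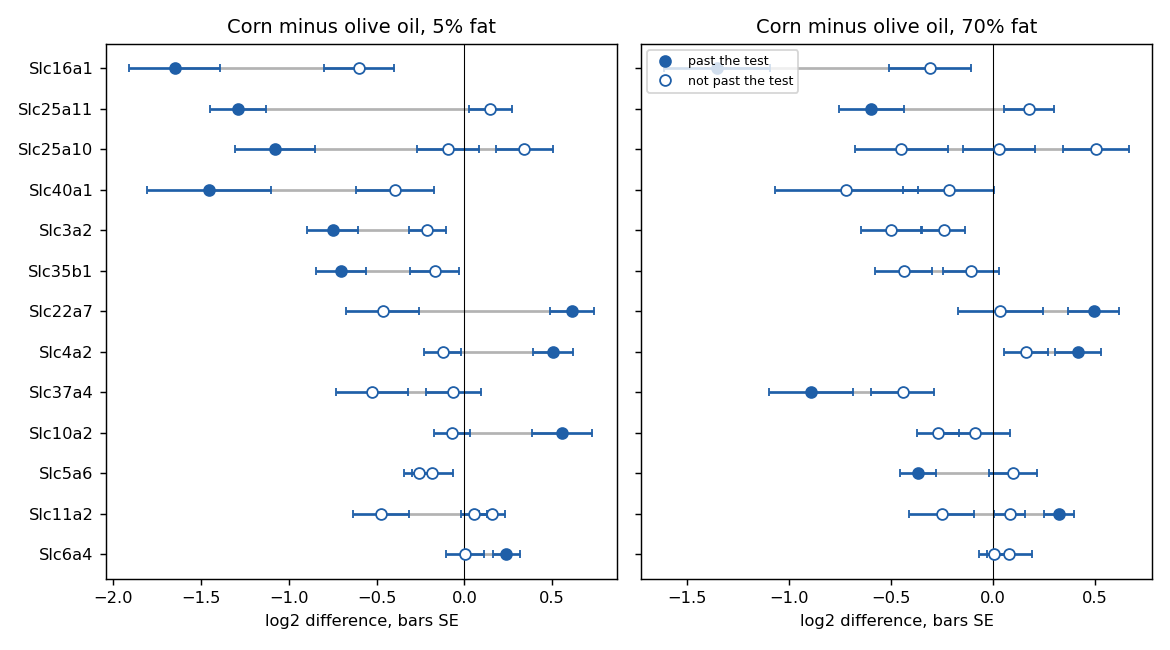
Corn minus olive oil (x axis, log2 difference with SE bars) at 5% fat (left) and 70% fat (right) for every probe set of the genes with several probe sets and at least 1 past the test. A grey line joins the probe sets of a gene and filled points passed; those of Slc16a1 lie on 1 side of 0, and those of Slc25a11 at -1.29 and 0.15 on either side.

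The other transporters of the array (organic anion polypeptides, ATP-binding cassette transporters, aquaporins, sodium pump subunits and the 4 carriers left out) were counted in the same fit. Of their 48 probe sets of 35 genes, 2 passed for fat with corn oil and 2 with olive oil, in each case the probe sets of the fructose transporter Slc2a5, which were lower at 70% fat. For the mean fat effect Slco1a4, an uptake carrier of organic anions, passed besides these (1.15, adjusted p = 0.0132 by limma). For oil 13 passed at 5% fat (27.1%, beside 19.5% of all probe sets) and 6 at 70% fat (12.5%, beside 8.51%), shares above those of all probe sets where the carriers' were below; this difference was not tested. They included Aqp9, the glycerol channel of hepatocytes, at -0.65 and -0.44, and Slco1a1 at -0.73 and -0.85. Of the 2 probe sets of Abcd3, a peroxisomal transporter of fatty acids, 1 was higher (1.16) and 1 lower (-1.13) with corn oil at 5% fat.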

How the data were processed

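RNA of pooled rat liver was hybridised to 12 single-colour Affymetrix arrays (8 ug of total RNA each). The authors deposited log2 values, made with GCOS and RMA per the submitters' processing notes (no version given); the base was taken as 2. Tested on the table, 100% of probe sets had a median within 1e-06 of 0, so values are centred. A filter on low values was therefore not possible. There were 0 columns of other samples. After 59 array controls were left out, 8740 probe sets were tested.

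Tests used limma 3.58.1 in R 4.3.3, with 1 mean per diet, a spread shared by all 12 arrays (8 residual degrees of freedom) and eBayes without trend. Two-sided p-values were adjusted by the Benjamini-Hochberg method in each of 6 contrasts, with a threshold of 0.05. For arrays, their number limits the precision. The code was tested on simulated data.

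Text names the probe sets past the threshold in each contrast (the 20 smallest p-values where more passed) with the others of their gene, the 3 smallest p-values where none passed, the smallest p for the mean fat effect in each family of 3 or more probe sets, and a list of 60 carriers always looked up, 45 of them measured. Of 68 genes so chosen a part is described. Members and lists were chosen with earlier results of these data known. Alternatives were other normalizations, moderation, weights, block, index covariate, groups, units and left-out arrays. An oil named in the protocol besides corn and olive was not analysed here. Promoters came from RefSeq for GRCr8. Replicates were compared for duplicates: the 2 most alike arrays still differed by 0.195 (root mean square, log2).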

Additional observations from a re-analysis of the deposited data

How the results depend on the processing

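Counts of carriers past the test were 2 for fat with corn oil, 0 with olive oil, 3 for the mean fat effect, 22 and 11 for oil at 5% and 70% fat, and 0 for the interaction. Over all probe sets the counts were 184, 38, 199, 1704, 744 and 0 in the same order. Brackets below hold the count over all probe sets. Fat with corn oil gave 1 with quantile normalization (51), array weights (137) or the 2 groups alone (53), and 0 with the index as a covariate (40). Fat with olive oil gave 2 with array weights (138). The mean fat effect gave 1 with quantile normalization (184), the index (123) or a 1.5-fold minimum (109). Oil at 5% fat gave 40 with array weights (2632), 0 with the index (0) and 9 with a 1.5-fold minimum (886). Oil at 70% fat gave 18 with quantile normalization (1065), 0 with the index (0) and 5 with a 1.5-fold minimum (370). It gave 4 with the 2 groups alone (334) and 6 with 1 value per gene (328, counted in genes). Leaving out 1 array gave 1 to 3, 0, 2 to 3, 12 to 31, 5 to 13 and 0 carriers in the order above, and an index difference between the oils of 1.25 to 1.52. Over all probe sets the counts ran over 59 to 348, 10 to 69, 116 to 233, 1115 to 2065, 311 to 1162 and 0 to 10. Fat with corn oil gave 1 without pools 1 or 2 of 5% corn oil, pools 2 or 3 of 70% corn oil, pool 2 of 5% olive oil, or pools 1 or 2 of 70% olive oil. The cause of these shifts was not tested.

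With the index as a covariate the sign turned at 5% fat for Slc25a5 (0.22), Slc16a1 (0.19), Slc28a2 (0.27), Slc40a1 (0.46) and Slc3a2 (0.13), and at 70% fat for the called probe set of Slc25a11 (0.072), none past the test. With 1 value per gene the uncalled probe set of Slc25a11 took the gene's mean of -0.57 (adjusted p = 0.00479), since that mean includes the called one.

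With the pool number as a replicate block the counts were 2, 0, 3, 22, 9 and 0, beside 221, 37, 187, 1625, 650 and 1 over all probe sets. The labels do not say whether the numbers pair the samples. Deviations of same-numbered arrays correlated at -0.19 to 0.23, over 0.1 in 3 of 18 pairs, and those of other arrays at -0.30 to 0.28. These few correlations cannot decide whether the numbers pair samples. Membership by updated symbols gave identical counts.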
